A study of Mus musculus with 12 samples.

Results

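The Hox genes were followed through the early differentiation of mouse embryonic stem cells (ESCs) with and without the *Meteor* locus. The members are 38 Hox genes given as a list of symbols, matched to the Ensembl identifiers of the count files, and make up 38 of the 46517 genes counted. They comprise 10 genes of the Hoxa cluster, 10 of Hoxb, 9 of Hoxc and 9 of Hoxd. In GRCm38 the listed Hoxa genes lie on chromosome 6 from 52162417 to 52260880, the Hoxb genes on chromosome 11 from 96194316 to 96368256, the Hoxc genes on chromosome 15 from 102921103 to 103036852 and the Hoxd genes on chromosome 2 from 74668310 to 74765142. Polyadenylated RNA of 12 samples was sequenced, with 3 replicates in each of 4 groups. WT day 0 samples were undifferentiated *Eomes* EGFP reporter ESCs, and KO day 0 samples were the same cells with *Meteor* deleted, an enhancer locus upstream of *Eomes* that produces a long noncoding RNA. The day 3 groups, WT and KO, had been aggregated in hanging drops into embryoid bodies for cardiac differentiation. Every group carried the reporter allele, had a C57BL/6 background, and came from cultures kept on mouse embryonic fibroblast feeders. The KO was made with a Cas9 nickase and picked as an individual clone, so the deletion cannot be told apart from other differences of that clone. Nothing in the labels says whether replicates were separate cultures, so p-values measure the spread between these samples, which may be technical.

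Hox genes encode homeodomain transcription factors that give cells of the embryo their position along the head to tail axis. They sit in clusters, and the order of genes in a cluster matches their order of expression. Genes of paralog group 1 at the 3′ end come on first, in the posterior primitive streak and its mesoderm, and genes of the highest groups at the 5′ end come on last, in the tail bud and the distal limb. Undifferentiated ESCs are known for keeping the clusters largely silent under Polycomb repression, and retinoic acid, Wnt and Cdx factors are known to open them from the 3′ end. Paralog numbers are used below as anterior for groups 1 to 4, central for 5 to 8 and posterior for 9 to 13.

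The promoters of *Hoxb1* and *Hoxd1* are printed because these genes changed in more than one comparison and because *Hoxb1* is known to maintain its own expression with Pbx cofactors through TGATGGAT sites. The sequences are those of RefSeq on GRCm38.p6, end at the base before the annotated gene start, run 5′ to 3′ on the plus strand and show in capitals any of the motifs TGATGGAT, TGATTGAT and TTTATG. The *Hoxb1* window is chr11:96365508-96365751, and the *Hoxd1* window is chr2:74762730-74762979.
Hoxb1: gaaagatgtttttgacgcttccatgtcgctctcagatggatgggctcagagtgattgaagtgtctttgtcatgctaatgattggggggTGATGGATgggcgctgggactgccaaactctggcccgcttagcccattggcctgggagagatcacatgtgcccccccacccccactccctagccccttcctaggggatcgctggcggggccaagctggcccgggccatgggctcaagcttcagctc
Hoxd1: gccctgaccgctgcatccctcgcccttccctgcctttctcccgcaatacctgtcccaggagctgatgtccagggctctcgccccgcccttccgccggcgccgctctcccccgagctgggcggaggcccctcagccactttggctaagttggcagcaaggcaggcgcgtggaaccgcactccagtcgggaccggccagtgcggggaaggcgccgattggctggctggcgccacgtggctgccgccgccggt

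The *Hoxb1* window of 244 bases held 1 of the motifs, TGATGGAT, which starts 156 bases before the end of the window. The *Hoxd1* window of 250 bases held none of the 3, none of which contains another. RefSeq promoters were matched for 22 of the 38 genes, with 24 promoters in all. On either strand of the 250 bases before each start, TGATGGAT occurred in 0.67% of 32851 promoters and, among the Hox promoters, in that of *Hoxb1* alone. TGATTGAT, another Pbx and Hox site, also occurred in 0.67% of promoters and in those of *Hoxa2* and *Hoxd11*. TTTATG, a Cdx site, occurred in 10.8% of promoters and in 5 of the 24 Hox promoters, those of *Hoxa7*, *Hoxb8*, *Hoxd3*, *Hoxd4* and *Hoxd11*. Only exact matches were marked and counted, so sites that differ from a motif in a base are not shown. These matches are descriptions of the letters and not of binding.

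Between 17455927 and 23910943 reads were counted on genes in each sample. Expression is given in CPM, the read count of a gene scaled to library size with TMM factors, and 1 read at the median depth is 0.0509 CPM. *Platr11* and ENSMUSG00000103968, the annotated genes of the targeted locus, had 0 to 0.06 CPM in the 6 KO samples and 0.51 to 6.12 CPM in the 6 WT samples, so no sample went against its genotype label. WT day 3 replicate 3 stood apart from its group. The summed level of 8 lateral and extraembryonic mesoderm markers was 51.8 and 54.3 CPM in replicates 1 and 2 and 687 CPM in replicate 3, with *Hand1* at 1.68, 1.25 and 105 CPM. The summed level of 7 primitive streak markers went the other way, with 1449, 1389 and 662 CPM. At day 0 these streak markers were highest in WT replicate 3. Their sum was 72.6, 42.7 and 156 CPM in WT day 0 replicates 1, 2 and 3 and 68.0, 51.8 and 54.8 CPM in KO day 0. *T*, 1 of the 7, had 4.64, 6.42 and 77.4 CPM in WT day 0. Markers of embryonic fibroblasts were measurable at day 0. Their summed level over 12 genes was 92.2, 269.5 and 137 CPM in WT day 0 replicates 1, 2 and 3 and 133, 365 and 222 CPM in KO day 0, against 42.7 to 87.1 CPM in the 6 day 3 samples. Among the defining fibroblast markers, *Lum* never exceeded 0.33 CPM, and *Dcn* was between 0.76 and 2.71 CPM and *Postn* between 2.08 and 10.7 CPM at day 0. *Prrx1* was between 0.928 and 13.7 CPM and *Twist2* between 0.168 and 1.10 CPM at day 0. In KO day 3, *Dcn* reached 6.58 CPM, while *Postn* was at most 1.96, *Prrx1* at most 0.682 and *Twist2* at most 0.25 CPM.

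Hox expression was low in every sample. The 38 genes together had 11.5, 19.8 and 24.0 CPM in WT day 0 replicates 1, 2 and 3, and 7.17, 17.6 and 15.5 CPM in KO day 0. At day 3 they had 8.26, 11 and 43.4 CPM in WT and 1.80, 3.36 and 2.62 CPM in KO. The WT and KO totals overlapped at day 0 and did not overlap at day 3, where WT replicate 3 was far above the other WT samples. A count was found for 30 to 36 of the 38 genes in each day 0 sample, for 19, 18 and 35 genes in WT day 3 and for 12, 22 and 19 genes in KO day 3. In bulk RNA, fewer cells that express a gene and less RNA per cell cannot be told apart, which holds for all comparisons below.

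**Figure D1:**
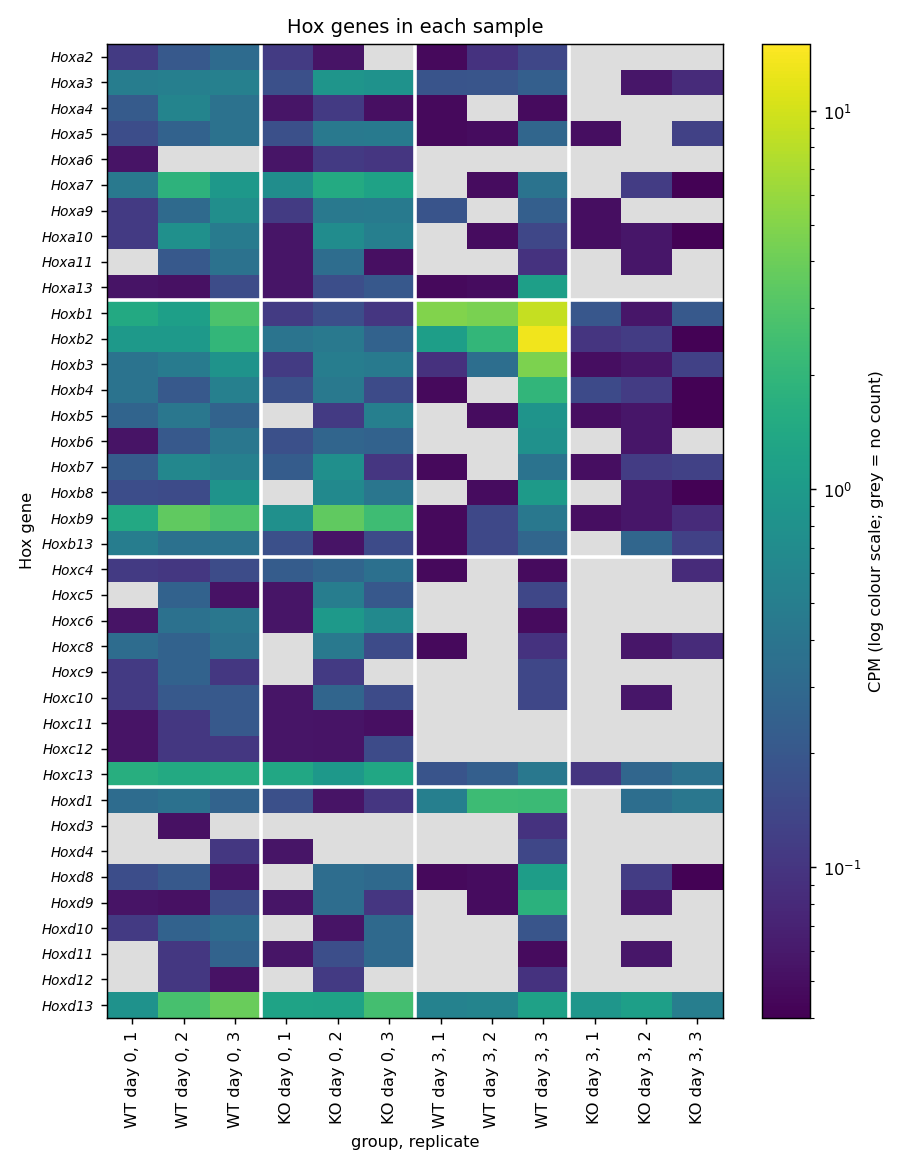
Each row is a Hox gene and each column a sample, coloured by CPM on a log scale, with grey where no read was counted. *Hoxb1* and *Hoxb2* stand out in the 3 WT day 3 samples, WT day 3 replicate 3 has a count for 35 of the 38 genes, and most KO day 3 cells are grey or close to the level of 1 read.

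The test was run on genes that exceeded 1 CPM in any sample, among them 13 of the 38 Hox genes, *Hoxa7*, *Hoxa13*, *Hoxb1*, *Hoxb2*, *Hoxb3*, *Hoxb4*, *Hoxb8*, *Hoxb9*, *Hoxc13*, *Hoxd1*, *Hoxd8*, *Hoxd9* and *Hoxd13*. Of these, 6 passed only through WT day 3 replicate 3, namely *Hoxa13*, *Hoxb3*, *Hoxb4*, *Hoxb8*, *Hoxd8* and *Hoxd9*. A gene that passes in this way has to be high in that library, so counts over the 13 genes are no support for a difference at day 3. The filter also favoured the higher group for other genes, since *Hoxd1* passed only through WT day 3 replicates 2 and 3, *Hoxb1* and *Hoxb2* only through WT samples, and *Hoxa7*, *Hoxb9* and *Hoxc13* only through day 0 samples. With no filter, all 38 genes were tested, and *Hoxb1*, *Hoxb2* and *Hoxd1* at day 3 and *Hoxb1*, *Hoxd1*, *Hoxa7*, *Hoxb9*, *Hoxc13* and *Hoxd13* in the WT course were called there too. The other 25 genes never had more than 18 reads in a sample, and their highest levels lay between 0.0953 CPM for *Hoxd3* and 0.992 CPM for *Hoxc6*. The levels of *Hoxd3* and *Hoxd4* are uncertain in any case because 57.8% and 41.1% of the 100-base words of their transcripts also occur in another gene. None of the 13 tested genes had such shared words.

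The level of the paralog groups was compared per kb of exon, since genes differ in length. The values are sums over the listed genes, which number 4 in groups 9 and 13 and 2 in group 1. Their order is therefore not an order of the levels per gene. In WT day 0 samples the summed level was highest for group 13, at 1.24, 1.85 and 2.43 CPM per kb in replicates 1, 2 and 3. Group 9 followed with 0.642, 1.55 and 1.36 and group 1 with 0.811, 0.691 and 1.35 CPM per kb, and these 3 ranges overlapped. In KO day 0 samples, group 1 had 0.139, 0.101 and 0.0989 CPM per kb, below every WT day 0 sample. Group 13 had 1.17, 0.961 and 1.74 and group 9 had 0.351, 1.65 and 1.06 CPM per kb there, both overlapping the WT range.

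At day 3 the order was different. Group 1 led in WT with 2.39, 3.21 and 5.11 CPM per kb, and group 2 had 0.347, 0.634 and 3.90 CPM per kb. Groups 3 to 12 stayed at or below 0.111 CPM per kb in WT replicates 1 and 2, while replicate 3 had values up to 1.16 CPM per kb in these groups. In KO day 3 samples group 13 was highest, at 0.403, 0.703 and 0.410 CPM per kb, followed by group 1 at 0.0861, 0.208 and 0.313. All other groups were at or below 0.113 CPM per kb in KO day 3.

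**Figure D2:**
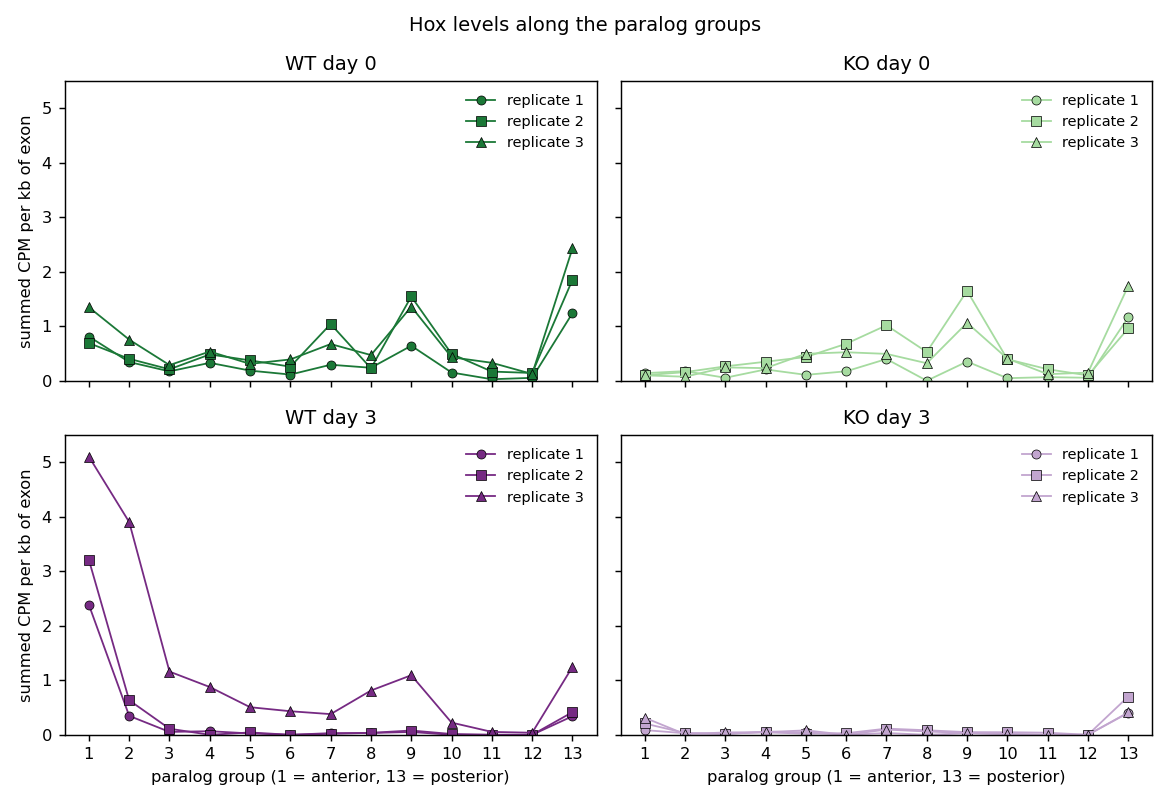
The panels show the 4 groups, with the paralog group on the x axis, the summed CPM per kb of exon on the y axis and a line for each replicate. Paralog groups differ in the number of genes summed. Group 1 reaches 2.39 to 5.11 CPM per kb in WT day 3 samples and stays at or below 0.313 in all KO samples, and WT day 3 replicate 3 lies above the other WT day 3 replicates from group 1 to group 13.

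Among single genes, *Hoxb9* and *Hoxd13* had the highest mean levels per kb in WT day 0, 1.01 (lowest 0.552, highest 1.36) and 0.992 CPM per kb (0.330 to 1.58). *Hoxb1* followed with 0.778 (0.494 to 1.21) and *Hoxc13* with 0.627 CPM per kb (0.594 to 0.666). The ranges of *Hoxb9*, *Hoxd13* and *Hoxb1* overlapped, so their order is not resolved. In WT day 3, *Hoxb1* led with 2.65 (1.97 to 3.88), before *Hoxb2* with 1.58 (0.321 to 3.82) and *Hoxd1* with 0.915 CPM per kb (0.276 to 1.24). *Hoxb1* and *Hoxb2* overlapped through replicate 3, and *Hoxb1* and *Hoxd1* did not overlap.

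The first comparison asked whether deletion of *Meteor* altered Hox expression in undifferentiated ESCs. *Hoxb1*, a group 1 gene needed for the identity of the fourth rhombomere, was lower in KO day 0. Among the tested genes, 20.4% were called at this day, 10.9% as lower in KO and 9.56% as higher. *Hoxb1* was the 1 Hox gene called of 13 (edgeR, quasi-likelihood F test, p-values adjusted by Benjamini-Hochberg over all 15673 tested genes and called below 0.05, SE for standard error). At an unadjusted p below 0.05, 2 of the 13 Hox genes passed, *Hoxb1* and *Hoxb2*, both lower in KO, beside 5325 of all 15673 tested genes. Of the 7 streak markers 2 were lower in KO at day 0, *T* at -5.49 and *Wnt3* at -3.59 (edgeR adjusted p = 0.023 and 0.0054). Of 8 lateral mesoderm markers 1 was higher and 1 lower. Of 6 ESC markers 1 was higher, and of 5 tested neural markers 2 were lower. Without WT day 0 replicate 3, *Hoxb1* was still called, at -3.57 (edgeR adjusted p = 0.0034). The part of streak RNA in the Hox differences was not tested.

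*Hoxb1* had 1.47, 1.15 and 2.80 CPM in WT day 0 replicates 1, 2 and 3 and 0.112, 0.165 and 0.102 CPM in KO day 0. Every WT sample was above every KO sample, and the KO samples rested on 2 to 3 reads each. The share of all genes whose WT and KO samples did not overlap was not counted, so overlap only describes the samples here and below. The log2 fold change was -3.73 (SE 0.41, edgeR adjusted p = 0.00045), a KO level of 7.55% of WT. *Hoxb2*, which acts next to *Hoxb1* in the hindbrain, had 0.983, 0.992 and 2.01 CPM in WT and 0.392, 0.441 and 0.255 CPM in KO. Its groups did not overlap either, but its log2 fold change of -1.76 did not pass the test (SE 0.76, edgeR adjusted p = 0.13). With the replicate number as a block within each day it passed at -1.83 (edgeR adjusted p = 0.030), which raised the number of called Hox genes to 2.

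*Hoxd1*, another anterior gene, had 0.328, 0.365 and 0.264 CPM in WT day 0 and 0.168, 0.0551 and 0.102 CPM in KO day 0. These groups did not overlap, and the log2 fold change of -1.53 did not pass (SE 0.91, edgeR adjusted p = 0.27). The central and posterior genes measurable at day 0 had small differences that did not pass. *Hoxb9*, which takes part in patterning the thoracic skeleton, had a log2 fold change of -0.31 (SE 0.35), and *Hoxc13*, known for its role in hair and nails, one of -0.33 (SE 0.36, edgeR adjusted p = 0.59 and 0.56). The groups of *Hoxc13* did not overlap, with 1.64, 1.46 and 1.53 CPM in WT and 1.40, 0.937 and 1.38 CPM in KO. Those of *Hoxb9*, *Hoxd13* and *Hoxa7* overlapped. *Hoxd13*, a gene of digit formation, had -0.49 (SE 0.47, edgeR adjusted p = 0.51), and *Hoxa7*, a central gene of the trunk, had 0.19 (SE 0.56, edgeR adjusted p = 0.85).

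At day 3 of differentiation the question was which Hox genes respond to the loss of *Meteor* when mesendoderm forms. *Hoxb1*, *Hoxb2* and *Hoxd1* were lower in KO in each of the 3 replicates, and *Hoxb3* and *Hoxa13* were called lower with WT values that rest on replicate 3. Of all tested genes, 30.9% were called, 16.7% as lower in KO and 14.3% as higher. Of the 13 Hox genes, 5 were called, all lower. At an unadjusted p below 0.05 there were 7, all lower, beside 6689 of all 15673 tested genes in either direction. No Hox gene was called higher in edgeR, limma-voom or DESeq2. Without WT day 3 replicate 3, 3 of the 7 Hox genes then tested were called, namely *Hoxb1*, *Hoxb2* and *Hoxd1*, and the same 3 were called without KO day 3 replicate 3. Marker genes moved with genotype at this day as well. The 7 streak markers were all lower in KO, with a summed level of 75.7 to 150.4 CPM against 662 to 1449 CPM, and 6 of the 8 lateral mesoderm markers were lower, with 16.9 to 27.1 CPM against 51.8 to 687 CPM. Of the 11 tested fibroblast markers 5 were lower and 3 higher, of 6 ESC markers 3 were higher, and of 5 tested neural markers 4 were higher. Their part in the Hox differences was not tested.

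*Hoxb1* had 4.90, 4.57 and 9.0 CPM in WT day 3 replicates 1, 2 and 3 and 0.200, 0.0569 and 0.208 CPM in KO day 3. In reads this was 105, 95 and 189 against 4, 1 and 5. All WT samples were far above all KO samples, and replicates 1 and 2 alone already showed the difference. KO against WT gave a log2 fold change of -5.24 (SE 0.37, edgeR adjusted p = 3.5e-05), a KO level of 2.65% of WT. Without WT day 3 replicate 3 and with no filter it was -5.22 (edgeR adjusted p = 2.2e-08).

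*Hoxb2* had 1.12, 2.02 and 13.3 CPM in WT and 0.100, 0.114 and 0.0416 CPM in KO. The groups did not overlap, and WT replicate 3 was the highest of the 38 genes and 12 samples. As a log2 fold change this was -5.60 (SE 0.90, edgeR adjusted p = 0.0016) and -4.28 without that replicate and with no filter (edgeR adjusted p = 2.3e-05). The count of *Hoxb2* includes exons of which 27.3% of the length lies opposite exons of the antisense gene *Hoxb3os*. The library kit named in the labels keeps strand, but how the counting used it is not given in the sources used here, so reads of the pair may not be separated.

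*Hoxd1*, the group 1 gene of the Hoxd cluster, had 0.513, 2.31 and 2.29 CPM in WT day 3 and 0, 0.341 and 0.416 CPM in KO day 3. WT replicate 1 was low, but still above each KO sample. On the log2 scale the fold change was -2.70 (SE 0.65, edgeR adjusted p = 0.012). The gene entered this test through WT day 3 samples, and with no filter the value was -2.70 (edgeR adjusted p = 0.0024), and -2.52 without WT day 3 replicate 3 and with no filter (edgeR adjusted p = 0.013).

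*Hoxb3*, a hindbrain and neck gene, had 0.0933, 0.337 and 4.67 CPM in WT day 3 and 0.050, 0.0569 and 0.12 CPM in KO day 3. WT replicate 1 lay within the KO range, and replicate 3 held most of the WT reads. The log2 fold change of -3.88 (SE 1.00, edgeR adjusted p = 0.016) became -1.70 without that replicate and with no filter (edgeR adjusted p = 0.27). It also did not pass without KO day 3 replicate 3, at -3.11 (edgeR adjusted p = 0.16). Of its exon length, 52.9% lies opposite *Hoxb3os*.

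*Hoxa13*, a posterior gene of limb buds and the hindgut that is also active in the allantois, had 0.0466, 0.0481 and 1.14 CPM in WT day 3 and no read in the 3 KO day 3 samples. WT replicates 1 and 2 had 1 read each, and replicate 3 had 24. Set against a floor of 3 reads over the KO group, the pooled WT reads were at least 8.45-fold higher (fitted log2 fold change -5.94, SE 1.42, edgeR adjusted p = 0.016). This bound rests on replicate 3, since WT replicates 1 and 2 lay just below the floor of 0.0487 CPM. Without WT day 3 replicate 3 and with no filter the difference did not pass, at -3.60 (edgeR adjusted p = 0.41), nor did it without KO day 3 replicate 3, at -4.32 (edgeR adjusted p = 0.17). *Hoxd9*, another posterior gene, had 0, 0.0481 and 1.76 CPM in WT day 3 and 0, 0.0569 and 0 CPM in KO day 3. WT replicates 1 and 2 lay within the KO range. Its log2 fold change of -4.45 did not pass (SE 1.58, edgeR adjusted p = 0.056), passed with a block within each day at -4.81 (edgeR adjusted p = 0.013) and was -0.37 without WT day 3 replicate 3 and with no filter.

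The remaining genes that passed the filter through WT day 3 replicate 3 had the same distribution over the WT samples and no called difference. *Hoxb4*, a gene of the upper trunk, had 0.0466, 0 and 2.0 CPM in WT day 3 and 0.15, 0.114 and 0.0416 CPM in KO day 3 (log2 fold change -2.27, SE 1.36, edgeR adjusted p = 0.23). *Hoxb8* had 0, 0.0481 and 1.0 CPM in WT day 3 and 0, 0.0569 and 0.0416 CPM in KO day 3 (-3.03, SE 1.35, edgeR adjusted p = 0.11). *Hoxd8* had 0.0466, 0.0481 and 1.10 CPM in WT day 3 and 0, 0.114 and 0.0416 CPM in KO day 3 (-2.71, SE 1.3, edgeR adjusted p = 0.14). In each of them WT replicates 1 and 2 lay within or below the KO range, and only replicate 3 was above it.

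**Figure D3:**
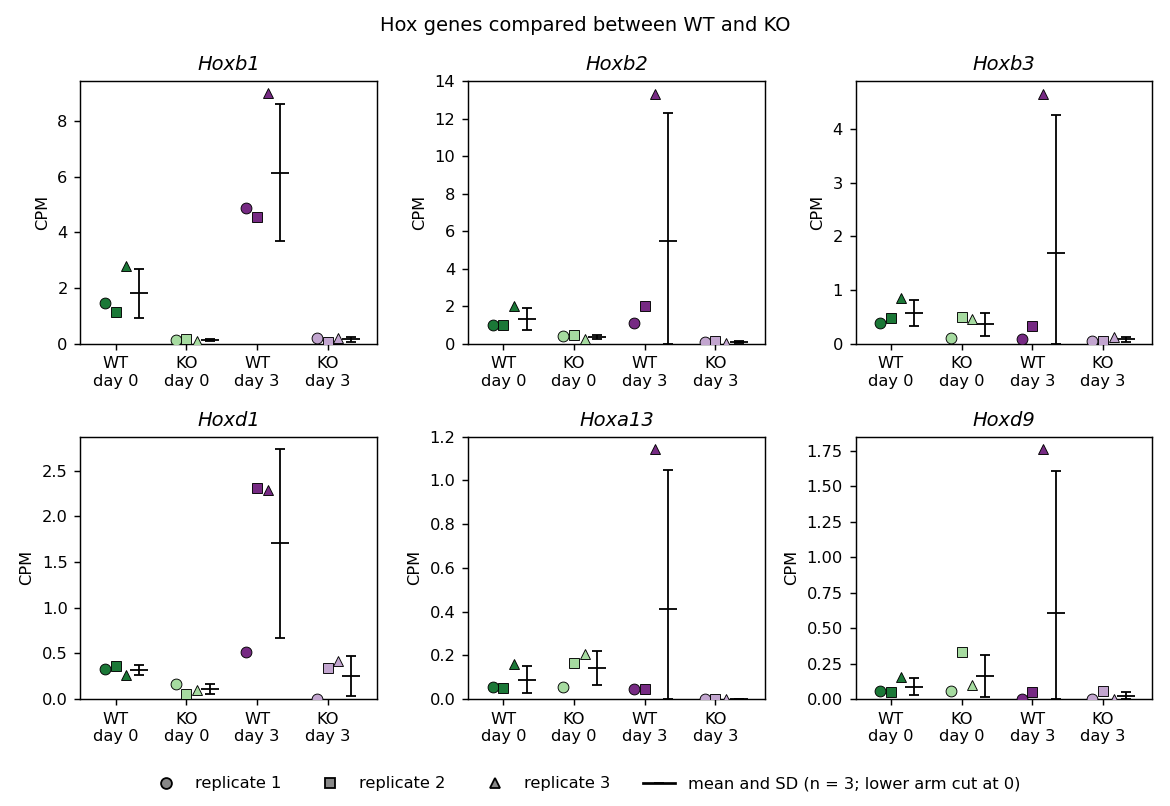
CPM (y axis, linear from 0) of 6 Hox genes is shown in each sample of the 4 groups, with symbols for the replicates and the mean with SD (n = 3) beside them. *Hoxb1* is high in all 3 WT day 3 samples and at most 0.208 CPM in KO, while *Hoxb3*, *Hoxa13* and *Hoxd9* are high in WT day 3 replicate 3 only.

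The central and posterior genes that were measurable at day 0 showed no called difference at day 3. *Hoxc13* had 0.187, 0.241 and 0.429 CPM in WT and 0.100, 0.284 and 0.375 CPM in KO, and *Hoxd13* had 0.560, 0.578 and 1.19 against 0.900, 1.14 and 0.50 CPM. Their groups overlapped, with log2 fold changes of -0.16 (SE 0.50, edgeR adjusted p = 0.84) and 0.22 (SE 0.54, edgeR adjusted p = 0.79). *Hoxb9* had 0.0466, 0.144 and 0.429 CPM in WT and 0.050, 0.0569 and 0.0833 CPM in KO, a log2 fold change of -1.55 (SE 0.70, edgeR adjusted p = 0.12). *Hoxa7* was at 0 to 0.381 CPM in the 6 samples, with -1.42 (SE 1.10, edgeR adjusted p = 0.36).

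Whether the effect of the deletion differed between the days was tested as the KO effect at day 3 minus that at day 0. Over all tested genes 15.5% were called in this test, 7.34% with a lower and 8.21% with a higher KO effect at day 3. Of the Hox genes *Hoxa13* was called, at -6.66 (SE 1.86, edgeR adjusted p = 0.047), and its values rest on WT day 3 replicate 3 as described. For *Hoxb1* the difference of -1.51 did not pass (SE 0.67, edgeR adjusted p = 0.18), nor did that of *Hoxb2* at -3.84 (SE 1.27, edgeR adjusted p = 0.068). With the block within each day, 4 Hox genes were called, *Hoxa13* (-6.87), *Hoxb2* (-4.05), *Hoxb3* (-3.60) and *Hoxd9* (-5.60), with edgeR adjusted p between 0.011 and 0.039.

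**Figure D4:**
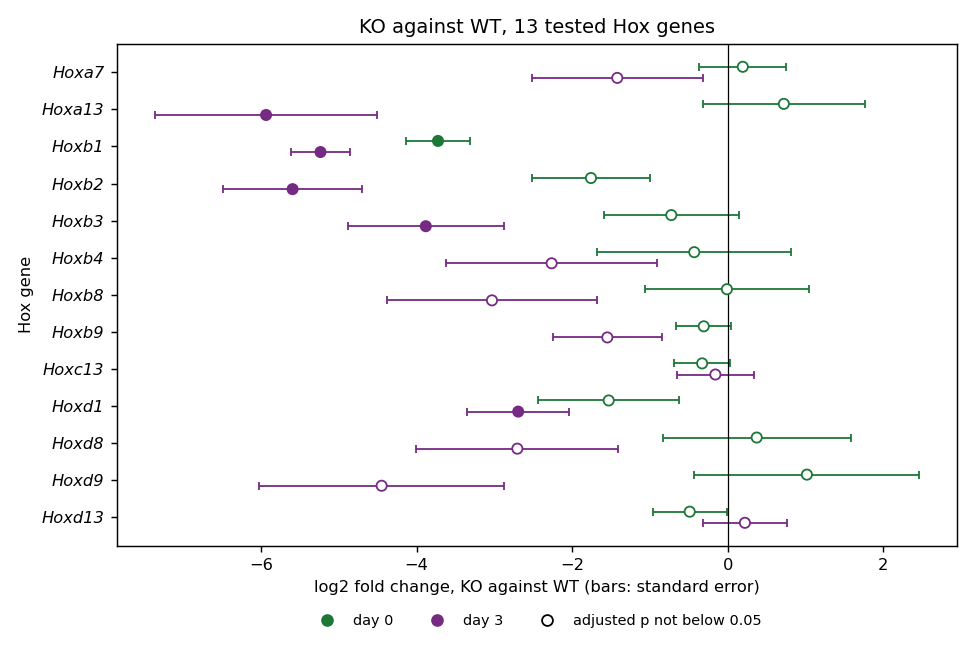
The log2 fold change of KO against WT (x axis, bars give the standard error) is shown for the 13 tested Hox genes at day 0 and day 3, with filled points where the adjusted p is below 0.05. *Hoxb1* is filled at both days (-3.73 and -5.24), 4 further genes are filled at day 3, and *Hoxc13* and *Hoxd13* lie near 0 at both days.

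The course from day 0 to day 3 was compared within each genotype. The 2 courses and the 2 genotype comparisons share samples, so their values are given side by side. In WT, *Hoxb1* and *Hoxd1* rose, and *Hoxb9*, *Hoxa7*, *Hoxc13* and *Hoxd13* fell. Among all tested genes 30.7% rose and 25.5% fell in WT. Of the 13 Hox genes 2 rose and 4 fell, 6 of 13 in all, beside the 56.2% of all tested genes that changed.

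*Hoxb1* rose from 1.81 ± 0.88 to 6.16 ± 2.47 CPM in WT (SD, n = 3), a log2 fold change of 1.79 (SE 0.28, edgeR adjusted p = 0.00048). Each WT day 3 sample was above each WT day 0 sample. *Hoxd1* rose from 0.319 ± 0.051 to 1.70 ± 1.03 CPM, with a log2 fold change of 2.23 (SE 0.65, edgeR adjusted p = 0.014), and of 2.23 with no filter (edgeR adjusted p = 0.0049). Its samples also did not overlap, but it did not pass without WT day 0 replicate 2, WT day 0 replicate 3 or WT day 3 replicate 2, with adjusted p up to 0.086 in edgeR. *Hoxb2* had a log2 fold change of 1.60 that did not pass (SE 0.63, edgeR adjusted p = 0.0504), and it was 1.32 with a block within each day, which passed (edgeR adjusted p = 0.020). Without WT day 3 replicate 3 and with no filter it was 0.35 (edgeR adjusted p = 0.69).

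Among the genes that fell, *Hoxb9* had 1.42, 3.50 and 2.85 CPM in WT day 0 and 0.785, 3.53 and 2.4 CPM in KO day 0. All day 3 values were at or below 0.429 CPM, so the days did not overlap in either genotype. Between the days the log2 change was -3.68 in WT (SE 0.45, edgeR adjusted p = 0.00011) and -4.92 in KO (SE 0.55, edgeR adjusted p = 4.4e-05). *Hoxa7* had 0.437, 1.83 and 0.951 CPM in WT day 0 and 0.729, 1.49 and 1.23 CPM in KO day 0, again above all day 3 values. Its log2 change was -2.85 in WT (SE 0.72, edgeR adjusted p = 0.0071) and -4.47 in KO (SE 0.85, edgeR adjusted p = 0.0013).

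*Hoxc13* had 1.64, 1.46 and 1.53 CPM in WT day 0 and 1.40, 0.937 and 1.38 CPM in KO day 0. Its WT day 0 values lay close together, and its days did not overlap. On the log2 scale *Hoxc13* changed by -2.45 in WT (SE 0.41, edgeR adjusted p = 0.00075) and by -2.28 in KO (SE 0.43, edgeR adjusted p = 0.0013). *Hoxd13* had 0.819, 2.66 and 3.91 CPM in WT day 0 and 1.23, 1.21 and 2.55 CPM in KO day 0. WT day 0 replicate 1 lay within the day 3 range. It fell in WT by 1.59 (SE 0.50, edgeR adjusted p = 0.021), a call that was lost without WT day 0 replicate 2, WT day 0 replicate 3 or WT day 3 replicate 2 (adjusted p up to 0.11 in edgeR), and its change in KO of -0.88 did not pass (SE 0.51, edgeR adjusted p = 0.17).

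In KO, 56.6% of all tested genes changed, 29.4% upwards and 27.2% downwards. No Hox gene rose in KO in edgeR, limma-voom or DESeq2. In the main edgeR fit 4 fell, *Hoxb9*, *Hoxa7*, *Hoxc13* and *Hoxa13*. At an unadjusted p below 0.05 there were 5 of the 13, all lower at day 3, beside 9686 of all 15673 tested genes in either direction. *Hoxa13* had 0.0560, 0.165 and 0.204 CPM in KO day 0, in all 8 reads, and none at day 3, so day 0 was at least 2.96-fold higher (edgeR adjusted p = 0.035). It did not pass in 7 of 13 other settings. *Hoxb1* stayed low in KO, with 0.127 ± 0.034 CPM at day 0 and 0.155 ± 0.085 CPM at day 3 (SD, n = 3) and a log2 change of 0.28 (SE 0.56, edgeR adjusted p = 0.71). With a block within each day 8 Hox genes fell in KO, in addition *Hoxb2* (-2.73), *Hoxb3* (-3.35), *Hoxb8* (-4.69) and *Hoxd9* (-5.03), with edgeR adjusted p between 0.0056 and 0.028.

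The levels of *Hoxb9* and *Hoxa7* at day 0 ordered the replicates like the fibroblast markers. In both genotypes replicate 1 was lowest and replicate 2 highest for *Hoxb9*, for *Hoxa7* and for the 12 summed markers. Among the single markers, 10 of 12 had this order in WT, 7 of 12 in KO and 7 in both, and *Pdgfrb* and *Col6a2* had it in neither genotype. The share of all genes with this order was not counted. Same-numbered WT and KO samples of a day deviated together over 13787 genes (mean correlation 0.484). A shared order in both genotypes is therefore not particular to these genes. The 11 central genes together had 1.91, 4.59 and 4.28 CPM in WT day 0 and 1.46, 6.12 and 4.39 CPM in KO day 0. None of the 11 tested fibroblast markers was called between WT and KO at day 0, while from day 0 to day 3 there were 3 that fell in WT, a share close to the 25.5% of all tested genes, and 8 in KO, where 27.2% of all genes fell and 1 marker rose. *Hoxc13* and *Hoxd13* did not follow that order of the replicates. The part of feeder RNA in the day 0 levels was not tested.

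**Figure D5:**
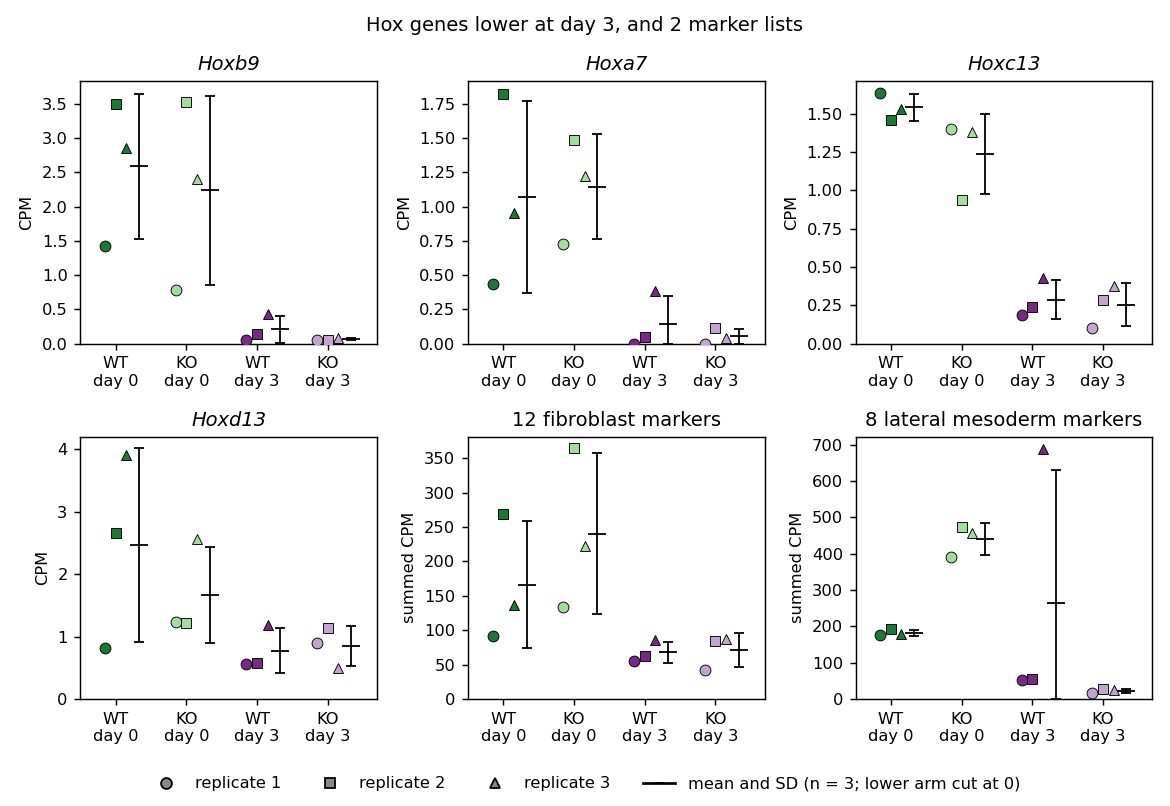
CPM (y axis, linear from 0) of *Hoxb9*, *Hoxa7*, *Hoxc13* and *Hoxd13* and the summed CPM of 12 fibroblast and 8 lateral mesoderm markers are shown per sample for the 4 groups, with the mean and SD (n = 3). *Hoxb9*, *Hoxa7* and the fibroblast markers are highest in replicate 2 of both day 0 groups, and the lateral mesoderm markers reach 687 CPM in WT day 3 replicate 3.

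WT day 3 replicate 3 also differed from its group in the breadth of Hox expression. It had more than 1 CPM for 10 Hox genes, against 2 and 3 in replicates 1 and 2. The Hoxb cluster had 6.30, 7.32 and 32.8 CPM in WT day 3 replicates 1, 2 and 3, and the Hoxd cluster 1.12, 2.98 and 6.91 CPM. The 11 anterior genes had 7.0, 9.53 and 32.0 CPM, the 11 central genes 0.187, 0.241 and 5.10 CPM and the 16 posterior genes 1.07, 1.25 and 6.34 CPM. Each range was highest in replicate 3. Without *Hoxb1* the anterior genes had 2.10, 4.96 and 23.0 CPM in WT day 3 and 0.30, 0.682 and 0.791 CPM in KO day 3. *Kdr*, a lateral mesoderm and endothelial receptor, had 21.8, 19.2 and 258 CPM in WT day 3, and the share of these cells in the Hox levels was not tested.

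The clusters also contain noncoding transcripts. The annotation places 41 other genes of the files between the outermost listed Hox genes, of which 19 had no read and 3 passed the filter. *Hoxb3os*, antisense to *Hoxb2* and *Hoxb3*, had 0.328, 0.313 and 0.528 CPM in WT day 0, 1.63, 2.02 and 11.1 CPM in WT day 3 and at most 0.25 CPM in the 6 KO samples. It rose by a log2 fold change of 3.32 in WT (SE 0.62, edgeR adjusted p = 0.0013) and was lower in KO at day 3 by -4.88 (SE 0.72, edgeR adjusted p = 0.0010). *Haglr*, which lies next to *Hoxd1*, had 0.140, 2.02 and 1.43 CPM in WT day 3 and 0, 0.512 and 0.166 CPM in KO day 3. It rose in WT by 3.31 (SE 1.03, edgeR adjusted p = 0.020), and its difference at day 3 of -2.39 did not pass (SE 0.90, edgeR adjusted p = 0.068). *Gm53*, in the Hoxb cluster, fell by 1.33 in WT (SE 0.38, edgeR adjusted p = 0.014) and by 2.07 in KO (SE 0.42, edgeR adjusted p = 0.0020). The miRNA genes of the clusters had at most 5 reads, in *Mir196a-1*, and the RNA had been selected for poly(A) tails.

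Hox proteins bind DNA with cofactors of the Pbx, Meis and Pknox families. Of the 9 listed cofactors, 4 were lower in KO at day 3, beside 16.7% of all tested genes. *Meis1* had 0.606, 1.11 and 4.53 CPM in WT day 3 and 0.200, 0.284 and 0.333 CPM in KO day 3, so the groups did not overlap. Its log2 fold change was -2.67 (SE 0.52, edgeR adjusted p = 0.0043). *Meis2*, *Meis3* and *Pknox2* were lower by -1.23, -0.77 and -2.19 (adjusted p between 0.000605 and 0.021 in edgeR). At day 0, *Meis3* was lower in KO at -0.80 (SE 0.23, edgeR adjusted p = 0.037). From day 0 to day 3, 7 of the 9 cofactors rose and 1 fell in WT, beside 30.7% and 25.5% of all tested genes. In KO, 6 rose and 1 fell, beside 29.4% and 27.2%. Among them, *Meis2* and *Meis3* rose in both genotypes, by 1.86 and 1.91 in WT and by 1.10 and 1.95 in KO (edgeR adjusted p at most 0.0080). *Meis1* fell in KO by 1.94 (SE 0.55, edgeR adjusted p = 0.012).

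Factors that act on the clusters were taken from a list of 17, of which 16 were tested. At day 3 there were 6 lower and 3 higher in KO, beside 16.7% and 14.3% of all tested genes, and at day 0 there were 3 lower and 3 higher, beside 10.9% and 9.56%. The number higher at day 3 is close to the share over all genes. *Cdx2*, which activates trunk Hox genes, had 4.38, 3.66 and 11.1 CPM in WT day 3 and 0.150, 0.227 and 0.25 CPM in KO day 3, a log2 fold change of -4.94 (SE 0.67, edgeR adjusted p = 0.00066). *Cdx1* and *Cdx4* of the same family were lower by -4.51 and -2.51. *Evx1*, a streak gene next to the Hoxa cluster, had 41.6, 40.4 and 35.7 CPM in WT day 3 and 0.75, 0 and 0.375 CPM in KO day 3, a log2 fold change of -6.81 (SE 0.67, edgeR adjusted p = 0.00014). *Evx1* was lowest, not highest, in replicate 3 of WT day 3.

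Genes of retinoic acid, the vitamin A signal that opens the clusters, moved in both directions. *Cyp26a1*, an enzyme that degrades it, had 76.7, 57.3 and 129 CPM in WT day 3 and 1.55, 3.87 and 2.21 CPM in KO day 3, a log2 fold change of -5.05 (SE 0.59, edgeR adjusted p = 0.00034). The receptors *Rara* and *Rarg* were higher in KO at day 3, by 0.62 and 1.17 (edgeR adjusted p = 0.0012 and 6.8e-05). *Rarb* was not called, with a difference of -0.0042 (SE 0.82). *Gdf11*, a signal that sets the position of posterior Hox expression, was higher in KO day 3 by 1.56 (SE 0.28, edgeR adjusted p = 0.0030), and *Egr2*, a hindbrain regulator of *Hoxb2*, was lower at both days, by -1.57 and -2.56. The Polycomb genes *Ezh2*, *Eed* and *Suz12* and the activator *Kmt2a* were not called at day 3, with log2 fold changes between 0.01 and 0.17, while *Eed* and *Ezh2* were higher in KO at day 0 by 0.53 and 0.21 (edgeR adjusted p = 0.0042 and 0.039).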

How the data were processed

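Polyadenylated RNA of 12 samples, 3 each of WT and KO at day 0 and day 3, was analysed. The deposited values are whole read counts per gene, as the authors' counting gave them, with no normalization. Per the study's methods and the submitters' processing notes, reads were trimmed with Cutadapt 1.3, aligned to GRCm38 with STAR 2.4.2a and counted with HTSeq 0.6.1 on Ensembl annotation. The labels and the paper name different extraction kits and sequencers, and the strand setting of the counting is not given in the sources used here. Rows that name no gene were left out. Of the sum of all rows of a sample they held 6.15% to 9.32% as no feature, 0.705% to 0.75% as ambiguous and 36.5% to 44.1% as alignments that are not unique.

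Symbols, positions and exon lengths came from GENCODE mouse release 21 (46005 of the 46517 identifiers matched). Genes above 1 CPM in at least 1 sample (15673) entered a quasi-likelihood F test (edgeR 4.0.16, R 4.3.3, TMM factors) over all 12 samples, with 1 group for each genotype at each day and replicate number as blocking term, because the study's own model has a batch term. Benjamini-Hochberg adjustment covered all tested genes, with calls below 0.05. Standard errors were derived from the log2 fold change and the F statistic. A group at 0 was set to a floor of 3 reads over its 3 samples, which covers counting error only.

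Same-numbered WT and KO samples of a day deviated together (mean correlation 0.484, 0.294 to 0.656 over 6 pairs and 13787 genes), and between days they did not (mean -0.0341), so Hox results that change with a block within each day are given with it. Values of other genes come from the fit with 1 block over both days alone. The numbers come from the sample labels.

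The 38 Hox genes and the lists of cofactors, regulators, cluster transcripts and markers were chosen with earlier results of these data known. Values in single samples are given for Hox genes called in any comparison, though not in all 4 groups for each of them, and *Hoxd9* was added after its values were seen. Alternatives were no block, a block within each day, limma-voom (limma 3.58.1), DESeq2 1.42.0, RLE normalization, edgeR's filterByExpr, no filter, the 6 samples of a comparison alone, a log2 fold change over 1, and each replicate left out. The scripts were tested on simulated data. Figures were drawn with matplotlib 3.10.9 in Python 3.11.15. Values of 1 listed cofactor are not reported here.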

Additional observations from a re-analysis of the deposited data

Results flagged for a closer look

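In the main fit, *Hoxa13* was the 1 Hox gene whose KO effect differed between the days in a test of the difference itself. Its value was -6.658 for day 3 minus day 0 on the log2 scale (adjusted p = 0.047 in edgeR's quasi-likelihood test). With DESeq2, and in edgeR without WT day 3 replicate 1, the 1 Hox gene called was *Hoxb2* and not *Hoxa13*. The fitted size depends on the prior count, since the KO day 3 samples had no read. WT day 3 held 26 reads, of which 24 were in replicate 3, the library with high lateral mesoderm markers. The difference passed in 5 of 18 other settings, and its adjusted p ranged from 0.011 with a block within each day to 0.45 without WT day 3 replicate 3 and with no filter.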

How the results depend on the processing

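The count of called Hox genes moved by more than 1.5 times as follows. KO against WT at day 0 went from 1 to 2 with a replicate block within each day, with only the 6 samples compared, and with no filter and without WT day 3 replicate 3 (chosen after seeing the data), each time by *Hoxb2*. At day 3 it went from 5 to 3 with filterByExpr and in the fit with no filter and without WT day 3 replicate 3, and between 3 and 7 when each replicate was left out. The WT course went from 6 to 10 with no filter and 11 with that replicate also left out, and between 4 and 7 over left-out replicates. The KO course went from 4 to 8 with a block within each day, 12 with no filter and 14 with WT day 3 replicate 3 also left out, and between 3 and 7 over left-out replicates, with 7 without KO day 0 replicate 3. With DESeq2 the KO course stayed at 4, with *Hoxb2* called in place of *Hoxa13*. For the difference between the days the count of 1 became 0 with no replicate block, limma-voom, filterByExpr, and no filter without WT day 3 replicate 3 (3, 3, 2 and 1 genes at an unadjusted p below 0.05), 4 with a block within each day and 2 with no filter, and it lay between 0 and 3 over left-out replicates. The causes were not tested, except that a stricter filter tests fewer genes and no filter tests all 38.

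Without the replicate block the counts of the genotype comparisons were 1 and 5 and those of the courses 7 and 3. *Hoxb1* at both days and *Hoxb2* and *Hoxd1* at day 3 were called in every setting run. Among the Hox genes followed over the settings, signs changed only for differences that were not called. Over left-out replicates the KO against WT log2 fold change at day 0 spanned -0.128 to 0.637 for *Hoxa7*, -0.105 to 2.15 for *Hoxa13*, -1.64 to 0.110 for *Hoxb3* and -0.637 to 3.15 for *Hoxd9*. At day 3 it spanned -2.17 to 0.949 for *Hoxa7*, -0.426 to 0.215 for *Hoxc13* and -0.194 to 0.886 for *Hoxd13*. Without WT day 3 replicate 3 and with no filter, *Hoxa7* and *Hoxc13* were at 0.904 and 0.129 at day 3, and *Hoxd13* was at -0.0571 with limma-voom. *Hoxb4*, *Hoxb8* and *Hoxd8* were not followed over all settings. Of these, *Hoxb4* and *Hoxd8* also changed sign at day 3, to 1.83 and 0.0052, without WT day 3 replicate 3 and with no filter. Depth limits most members, since 25 of 38 Hox genes had at most 18 reads in any sample.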

Other observations

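Some Hox genes below the filter, chosen after their values were seen, had groups that did not overlap. *Hoxa4*, a gene of the neck and upper trunk, had 0.218, 0.574 and 0.370 CPM in WT day 0 and 0.0560, 0.110 and 0.0511 CPM in KO day 0, and in the fit with no filter its log2 fold change was -2.32 (edgeR adjusted p = 0.12). *Hoxb13*, the most posterior gene of its cluster, had 0.491, 0.365 and 0.370 CPM in WT day 0 and 0.168, 0.0551 and 0.153 CPM in KO day 0, with -1.68 (edgeR adjusted p = 0.25). *Hoxc4* went the other way at day 0, with 0.109, 0.104 and 0.159 CPM in WT and 0.224, 0.276 and 0.358 CPM in KO, and 1.16 in that fit (edgeR adjusted p = 0.53). *Hoxa3* had 0.187, 0.193 and 0.238 CPM in WT day 3 and 0, 0.0569 and 0.0833 CPM in KO day 3, with -2.01 (edgeR adjusted p = 0.13). *Hoxa6* was higher in each KO day 0 sample, with at most 2 reads in any sample (2.00, edgeR adjusted p = 0.67). *Hoxa2* had 1, 2 and 3 reads in WT day 3 and 0 in each KO day 3 sample (-4.01, edgeR adjusted p = 0.16). None of these differences passed the test. The share of all genes with groups that do not overlap was not counted.

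With no filter, the fall from day 0 to day 3 in KO reached further genes of the Hoxa and Hoxc clusters. *Hoxc6*, a thoracic gene, had 0.0560, 0.992 and 0.664 CPM in KO day 0 and no read in KO day 3, so day 0 was at least 11.8-fold higher (edgeR adjusted p = 0.00036). *Hoxc5* had 0.0560, 0.496 and 0.204 CPM in KO day 0 and no read at day 3, at least 5.17-fold higher at day 0 (edgeR adjusted p = 0.022). *Hoxc6* also fell in WT in that fit, by 3.71 on the log2 scale (edgeR adjusted p = 0.011), from 0.0546, 0.365 and 0.423 CPM in WT day 0. Both genes were lowest in KO day 0 replicate 1 and highest in replicate 2, as the summed fibroblast markers were, but in WT day 0 *Hoxc6* was highest in replicate 3, where the markers were not. The part of feeder RNA was not tested.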
